A study of Mus musculus with 4 samples.

Results

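The matrix metalloproteinases (Mmp), the Adamts proteases, their tissue inhibitors (Timp) with the membrane-anchored inhibitor Reck, and genes of the plasminogen activator system were examined in mouse mammary tumors. These genes were selected by symbol, but with earlier results of these data known, so the choice was not blind to the values. It gave 52 members among 23746 gene rows, made up of 23 Mmp, 19 Adamts, 5 inhibitor and 5 plasminogen activator genes. PolyA RNA had been sequenced from 4 primary mammary tumors of female mice. Tumors 26043 and 26044 were triple-mutant (WapCreC;Rank;Brca1;p53) and tumors 26048 and 26050 double-mutant (WapCreC;Brca1;p53). All 4 tumors therefore carried the WapCreC transgene, which is active in luminal and basal epithelial cells of the mammary gland and deletes floxed Brca1 and p53, and the genotypes differed in the additional deletion of floxed Rank. The age of each female and the grade of each sequenced tumor are not given in the sources used here. The study describes only intermediate-grade tumors in triple-mutant mice, and both high-grade and intermediate-grade tumors in double-mutant mice. Genotype and grade may therefore not be told apart in these 4 tumors. Each tumor was counted as 1 replicate, and each SD below covers the spread between 2 tumors of a genotype. Standard errors of fold changes are those of limma. They pool the spread within both genotypes and are drawn toward the spread of other genes of similar level.

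Secreted and membrane-bound proteases remodel the extracellular matrix around epithelial, stromal and endothelial cells. Mmps and Adamts enzymes are zinc proteases made as inactive precursors, and Timps bind their active sites. The urokinase system turns plasminogen into plasmin, a broad serine protease that can in turn activate several Mmp precursors. In the mammary gland these enzymes take part in ductal branching and in the remodeling of the gland after lactation, and in tumors they are made by both cancer cells and stromal cells.

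Levels were compared as FPKM, fragments per kilobase of transcript scaled to the mapped fragments of a tumor, a scale that corrects for transcript length and so allows levels of different genes to be set side by side. Between 12150 and 12681 genes reached 1 FPKM per tumor. Rank itself (Tnfrsf11a) was at 2.07 and 0.96 FPKM in the triple-mutant tumors and at 10.6 and 11.9 FPKM in the double-mutant tumors, the direction its labels give. The luminal keratins Krt8 and Krt18 and the epithelial adhesion molecule Epcam were present in all 4 tumors and lowest in triple-mutant tumor 26044. There Epcam was at 25.7 FPKM, against 347 to 516 FPKM in the other tumors. The luminal keratin Krt19 had another order, at 1154 and 194 FPKM in triple-mutant and 139 and 56.7 FPKM in double-mutant tumors. The summed basal epithelial markers were at 1316 and 1160 FPKM in triple-mutant and 67.2 and 42.9 FPKM in double-mutant tumors, but the markers behind the sums differed. In tumor 26043 Krt5 and Krt14 were at 596 and 611 FPKM, whereas in tumor 26044 they were at 114 and 42.5 FPKM and Acta2, which stromal cells also make, was at 898 FPKM. The basal regulator Trp63 was at 28.5 and 48.1 FPKM in triple-mutant and 1.24 and 0.67 FPKM in double-mutant tumors. RNA of whole tumors cannot tell fewer cells of a type apart from less RNA per cell.

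Of the 52 members, 35 had at least 1 FPKM in at least 2 tumors and were tested. Fold changes below are differences of mean log2(FPKM + 1), triple-mutant minus double-mutant, which understate changes of genes near 1 FPKM. None of the 35 members passed an adjusted p of 0.05 in limma across 12752 genes, and neither did any other gene (0% called). At an unadjusted p under 0.05, limma gave 13 members and 1252 genes in all (9.82%). The smallest adjusted p of a member was 0.199 for Timp3, and an exact permutation test of 2 against 2 tumors cannot go below p = 0.33. Both triple-mutant tumors lay above both double-mutant tumors for 12 of the members tested, against 21.3% of all genes, and the reverse held for 8, against 22.9% of all genes. With a difference of at least 1 log2 unit as well, 9 members were higher in both triple-mutant tumors, against 7.3% of all genes, and 6 were higher in both double-mutant tumors, against 4.65% of all genes. The median absolute fold change was 0.87 log2 units for the members tested and 0.38 for all genes, while the signed medians were 0.32 and -0.02. The signed median of the members had no stable direction, since it was -0.09 with a filter of 5 FPKM and -0.003 with no filter.

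Tumors of 1 genotype also lay further apart in these genes than in the median gene. The median absolute difference between the triple-mutant tumors was 0.84 log2 units over the members tested and 0.45 over all genes, and between the double-mutant tumors 0.61 and 0.36. Across genotypes, the same median ran from 0.88 to 1.40 for the 4 pairs of tumors, against 0.37 to 0.57 over all genes. The plot of the members by tumor shows both kinds of gene, those ordered by genotype and those in which 1 tumor of each genotype was high.

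**Figure D1:**
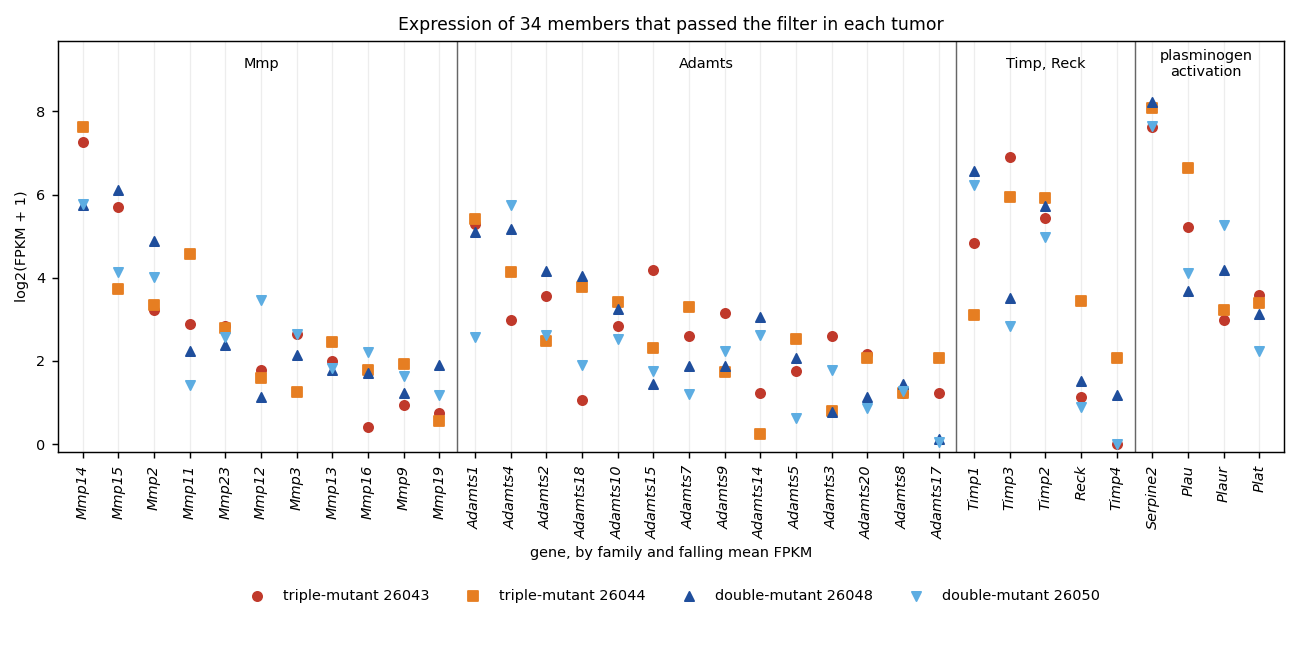
Level of 34 of the 35 members tested in each tumor, as log2(FPKM + 1) on the vertical axis, with genes grouped by family and ordered by falling mean FPKM on the horizontal axis; each point is 1 tumor. Mmp14 and Timp3 sit higher in both triple-mutant tumors and Timp1 in both double-mutant tumors, while Mmp15 and Adamts18 are split within each genotype.

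On the log2(FPKM + 1) scale Timp3 had the largest positive and Timp1 the largest negative fold change of the members tested, while with a pseudocount of 0.1 FPKM the low-level genes Adamts17 (3.75) and Adamts14 (-3.27) passed them (3.38 and -2.52). Timp3, an inhibitor that binds to the matrix and blocks Adamts and Adam proteases as well as Mmps, was at 118 FPKM in tumor 26043 and 60.7 FPKM in tumor 26044, and at 10.4 and 6.22 FPKM in double-mutant tumors 26048 and 26050. Both triple-mutant tumors were thus several times above both double-mutant tumors, with means of 89.3 ± 40.4 and 8.29 ± 2.92 FPKM (SD, n = 2 each). Its log2 fold change was 3.24 (standard error 0.46, limma adjusted p = 0.199), rank 82 by p among the genes tested. Timp1, a soluble inhibitor induced by cytokines and growth factors, had the opposite order, with 27.8 and 7.57 FPKM in triple-mutant and 94.4 and 74.5 FPKM in double-mutant tumors. The genotypes of Timp1 did not overlap, and its log2 fold change was -2.43 (standard error 0.64, limma adjusted p = 0.442).

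Timp2, the broadly expressed inhibitor that also takes part in the activation of pro-Mmp2 by Mmp14, was close between genotypes, with 42.4 and 59.3 FPKM in triple-mutant and 52.0 and 30.7 FPKM in double-mutant tumors. Timp4 was low, at 0 and 3.20 FPKM in triple-mutant and 1.29 and 0 FPKM in double-mutant tumors, so each genotype held 1 tumor listed at 0. Reck, a membrane-anchored protein that inhibits several Mmps, was at 1.19 and 9.81 FPKM in triple-mutant and 1.86 and 0.87 FPKM in double-mutant tumors. Reck was high in tumor 26044 alone, and its log2 fold change of 1.07 (standard error 0.84) moved to -0.08 without that tumor.

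Because FPKM is corrected for length, the 4 Timps could be added within each tumor. Their sum was 188 and 131 FPKM in triple-mutant and 158 and 111 FPKM in double-mutant tumors, a ratio of the genotype means of 1.18, and the genotypes overlapped. The makeup of the sum did not overlap. Timp3 made up 62.7% and 46.4% of it in triple-mutant tumors and 6.55% and 5.58% in double-mutant tumors, while Timp1 made up 14.8% and 5.79% against 59.8% and 66.9%. Timp2 held 22.5% and 45.4% in triple-mutant and 32.9% and 27.6% in double-mutant tumors. Within each tumor the level of Timp3 over that of Timp1 was 4.24 and 8.02 in triple-mutant and 0.110 and 0.0835 in double-mutant tumors. These ratios use only values of the same tumor, so a scaling of a whole tumor cannot move them.

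**Figure D2:**
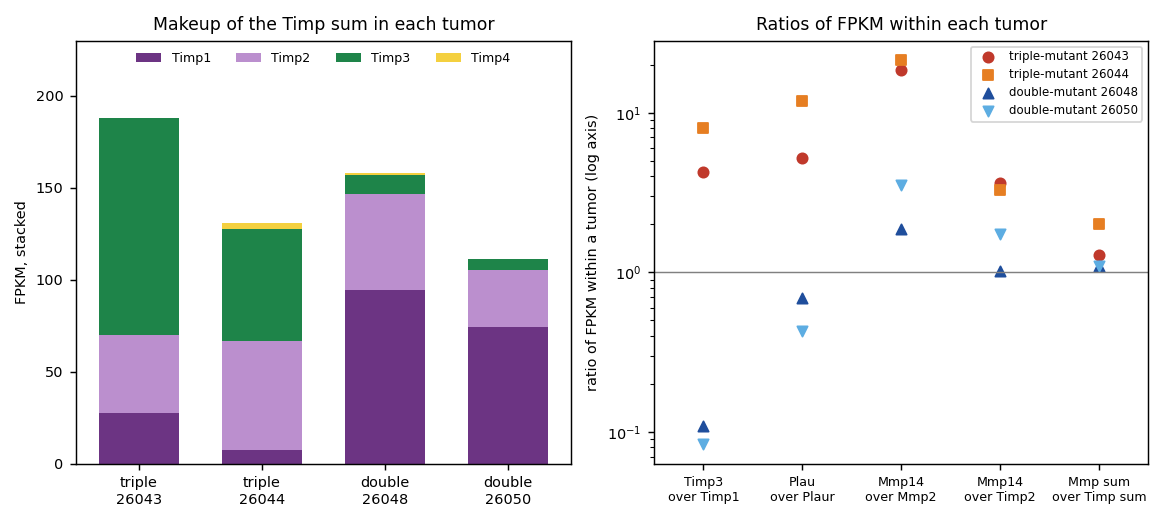
Left, FPKM of the 4 Timps stacked for each tumor; right, ratios of FPKM within each tumor on a log axis, 1 point a tumor, with a line at a ratio of 1. Timp3 is the largest block in both triple-mutant tumors and Timp1 in both double-mutant tumors, and Plau over Plaur lies above 1 only in the triple-mutant tumors.

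Of the Timps, 3 lie inside a synapsin gene on the opposite strand. Timp3 (chr10:86300412-86349505 on GRCm38) lies within Syn3, with 1733 shared exon bases, Timp1 (chrX:20870166-20874737) within Syn1 with 0 shared exon bases, and Timp4 within Syn2 with 90. Syn3 was at 0.146 to 0.358 FPKM and Syn1 at 0.166 to 1.17 FPKM, far below the Timp inside each. Syn2 was at 1.14 and 2.01 FPKM in triple-mutant and 6.32 and 0.22 FPKM in double-mutant tumors, similar in level to Timp4. The libraries marked strand, but the strand setting of the quantification is not given in the sources used here, so reads of Timp4 and Syn2 may not be separable.

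Among the Mmps, membrane-type Mmp14 was the most abundant by mean FPKM and had the smallest p. Mmp14, a membrane-anchored collagenase that activates pro-Mmp2 at the cell surface (chr14:54431604-54441258), was at 154 and 196 FPKM in triple-mutant and 53.2 and 53.5 FPKM in double-mutant tumors. The means were 174.9 ± 30.0 and 53.4 ± 0.2 FPKM (SD, n = 2 each), a log2 fold change of 1.68 (standard error 0.27, limma adjusted p = 0.231), rank 123 by p. Mmp14 held 63.7% and 74.9% of the summed FPKM of all 23 Mmps in triple-mutant tumors and 30.6% and 43.9% in double-mutant tumors. The Mmp sum was 241 and 262 FPKM in triple-mutant and 174 and 122 FPKM in double-mutant tumors, a ratio of means of 1.70. Without Mmp14 the sum was 87.7 and 65.6 FPKM against 121 and 68.4 FPKM, and the order of the genotypes was lost.

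Mmp2, the gelatinase that Mmp14 activates, was higher in both double-mutant tumors. It was at 8.32 and 9.16 FPKM in triple-mutant and 28.6 and 15.2 FPKM in double-mutant tumors (log2 fold change -1.17, standard error 0.40, limma adjusted p = 0.488). Mmp14 over Mmp2 was 18.5 and 21.4 within the triple-mutant and 1.86 and 3.52 within the double-mutant tumors, and Mmp14 over Timp2, its partner in that activation, was 3.63 and 3.30 against 1.02 and 1.74. The other gelatinase, Mmp9, was low in every tumor, at 0.91 and 2.81 FPKM in triple-mutant and 1.36 and 2.09 FPKM in double-mutant tumors. The summed Mmp level over the summed Timp level was 1.28 and 2.0 against 1.10 and 1.09.

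Mmp11, a stromelysin best known from fibroblasts next to carcinoma cells, was at 6.44 and 23.0 FPKM in triple-mutant and 3.74 and 1.67 FPKM in double-mutant tumors (log2 fold change 1.91, standard error 0.69, limma adjusted p = 0.503). Its level was highest in tumor 26044, as was that of Chchd10, a mitochondrial gene on the opposite strand that shares 155 exon bases with Mmp11 and was at 91.7, 257, 108 and 79.2 FPKM in tumors 26043, 26044, 26048 and 26050. Mmp11 also lies on a stretch of chromosome 10 where neighboring genes had fold changes of the same sign. Of 47 other genes tested within 2 Mb on either side, 44 had a positive fold change, with a median of 1.43 log2 units. Both triple-mutant tumors lay above both double-mutant tumors for 34 of the 47, against 21.3% of all genes. The part of the surrounding genes and of Chchd10 in the value of Mmp11 was not tested.

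The same count around the other members gave smaller medians. Around Mmp14 the median of 60 other genes was 0.54 log2 units, with 51 positive, and around Mmp2 the median of 28 genes was -0.65, with 24 negative. Around Plau it was 0.39 over 28 genes. Around Adamts4 the median of 53 genes was -0.41, with 41 negative. Both triple-mutant tumors lay above both double-mutant tumors for 30 genes around Mmp14, 0 around Mmp2, 10 around Plau and 2 around Adamts4. The reverse held for 3, 14, 0 and 21 genes. Over all genes tested these shares were 21.3% and 22.9%. Timp3 stood among 20 genes with a median of 0.15, 16 of them positive. Of these, 7 had both triple-mutant tumors above both double-mutant tumors and 0 the reverse. Timp1 stood among 14 genes with a median of -0.04, 11 of them negative. Around Timp1, 2 genes had both triple-mutant tumors above both double-mutant tumors and 3 the reverse. Timp3 and Timp1 lay over 2 log2 units from these medians, but they also had the most extreme fold changes of the members tested. The part of the surrounding genes in these values was not tested.

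Of the remaining membrane-type and other Mmps that were tested, Mmp23 and Mmp19 separated the genotypes. Mmp15, a membrane-type Mmp of epithelial cells, was at 51.0 and 12.3 FPKM in triple-mutant and 68.1 and 16.8 FPKM in double-mutant tumors. Each genotype therefore held 1 tumor about 4 times above the other, and Mmp15 was the largest Mmp in tumor 26048, with 39.1% of the sum. Mmp16, another membrane-type enzyme, was at 0.33 and 2.42 FPKM in triple-mutant and 2.25 and 3.66 FPKM in double-mutant tumors. Mmp23, a type II membrane Mmp, was slightly higher in both triple-mutant tumors, with 6.22, 5.88, 4.26 and 4.94 FPKM in tumors 26043, 26044, 26048 and 26050. Mmp19, an Mmp of stromal and myeloid cells, was at 0.67 and 0.48 FPKM against 2.73 and 1.26 FPKM, without overlap. Its ratio of means, double-mutant over triple-mutant, was 3.47, but at this low level the log2 fold change was -0.88 with the pseudocount of 1 FPKM and -1.55 with 0.1 FPKM.

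The secreted Mmps of the chromosome 9 cluster were scarce in all 4 tumors. This cluster (chr9:7272514-7699416) holds 10 members, the collagenases Mmp1a, Mmp1b, Mmp8 and Mmp13, the stromelysins Mmp3 and Mmp10, matrilysin Mmp7, macrophage elastase Mmp12, the enamel protease Mmp20, and Mmp27. Their sum was 11.9 and 8.09 FPKM in triple-mutant and 8.24 and 20.3 FPKM in double-mutant tumors, under the level of Mmp15 alone except in tumor 26050. Mmp3, Mmp12 and Mmp13 were tested, and 6 of the 10 stayed under 1 FPKM in every tumor. Mmp13 was at 2.99 and 4.44 FPKM in triple-mutant and 2.44 and 2.56 FPKM in double-mutant tumors. Mmp12 reached the highest level of the cluster, 10.1 FPKM in tumor 26050, against 2.42, 1.99 and 1.20 FPKM in tumors 26043, 26044 and 26048. Mmp3 was lowest in tumor 26044, with 1.39 FPKM against 5.23, 3.39 and 5.29 FPKM in tumors 26043, 26048 and 26050. Mmp7, a matrilysin of glandular epithelium, was at 0.46, 0.047, 0.19 and 1.66 FPKM in the same order of tumors. Mmp8, the neutrophil collagenase, reached 0.42 FPKM at most, and Mmp1a and Mmp1b, paralogs whose reads may be shared, were at or near 0.

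Most genes of the cluster held an AP-1 match in their promoter window. RefSeq promoter windows (build GRCm38.p6, 250 bases before to 50 after the transcription start) were matched for 35 of the 52 members and searched on both strands for TGAGTCA, the AP-1 site, for AACCACA, the Runx site, and for TATAAA, the TATA box. The AP-1 letters were in the windows of 8 members (22.9%), against 5.2% of all 32851 windows, and 7 of the 8 belong to the cluster, whose genes Mmp8, Mmp20 and Mmp27 held none. The Runx letters were in 3 members (8.57% against 5.27%) and the TATA letters in 11 (31.4% against 13.6%). The units of these shares differ. A member counts if any of its windows matches, over 35 genes with 38 windows, while the shares of all windows are per window. The median GC content was 41.7% in the windows of the cluster, 65.3% in those of the other members and 52.7% in all windows. Windows of Timp1, Timp3 and Mmp14 held none of these letters. The following stretches, from 100 bases before to 10 bases after the start in the direction of transcription, show the AP-1 and TATA matches of 6 genes of the cluster, which were at low levels here. The TATA match of Mmp12 begins at 5, after the annotated start, and Mmp7, not shown, has TATA matches at -123 and -26 on either side of its AP-1 match. Plaur, the other member with an AP-1 match, is shown for contrast because it has no TATA match. Capitals mark AP-1 and TATA matches, and TGACTCA is the AP-1 site read on the other strand.
Mmp13 (chr9:7272414-7272523, plus strand): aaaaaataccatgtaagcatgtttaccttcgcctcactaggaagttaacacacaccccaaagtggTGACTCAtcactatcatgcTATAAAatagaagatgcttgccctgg
Mmp3 (chr9:7445722-7445831, plus strand): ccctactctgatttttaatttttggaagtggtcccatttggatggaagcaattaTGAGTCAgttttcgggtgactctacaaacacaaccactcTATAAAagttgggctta
Mmp12 (chr9:7347274-7347383, plus strand): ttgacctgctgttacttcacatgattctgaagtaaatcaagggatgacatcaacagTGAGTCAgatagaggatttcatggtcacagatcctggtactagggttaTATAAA
Mmp10 (chr9:7502242-7502351, plus strand): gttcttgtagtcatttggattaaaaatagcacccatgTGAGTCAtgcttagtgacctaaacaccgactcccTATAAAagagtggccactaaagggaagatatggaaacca
Mmp1a (chr9:7464041-7464150, plus strand): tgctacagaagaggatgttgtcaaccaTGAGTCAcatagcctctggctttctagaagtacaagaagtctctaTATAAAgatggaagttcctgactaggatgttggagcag
Mmp1b (chr9:7388017-7388126, minus strand): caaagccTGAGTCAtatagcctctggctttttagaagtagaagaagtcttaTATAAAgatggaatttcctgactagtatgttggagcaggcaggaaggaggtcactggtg
Plaur (chr7:24462383-24462492, plus strand): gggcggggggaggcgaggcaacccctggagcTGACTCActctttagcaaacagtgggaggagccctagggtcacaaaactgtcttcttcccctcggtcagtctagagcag

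The first base of the AP-1 match lay at -35 in Mmp13, -44 in Mmp12, -46 in Mmp3, -63 in Mmp10 and Mmp7, -69 in Plaur, -73 in Mmp1a and -93 in Mmp1b, counted from the annotated start. Of these 8 genes 4 were tested, and Plaur alone differed by at least 1 log2 unit without overlap between genotypes. A letter match describes the sequence and does not show that a factor binds there. Among 13 AP-1, Ets and Runx factor genes, 12 were tested and 0 passed an adjusted p of 0.05 in limma. At an unadjusted p under 0.05 limma gave 1 of the 12, against 9.82% of all genes. That gene was Runx2, the bone and mammary Runx factor, at 4.70 and 4.38 FPKM in triple-mutant and 1.33 and 0.51 FPKM in double-mutant tumors (log2 fold change 1.56, limma adjusted p = 0.396).

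**Figure D3:**
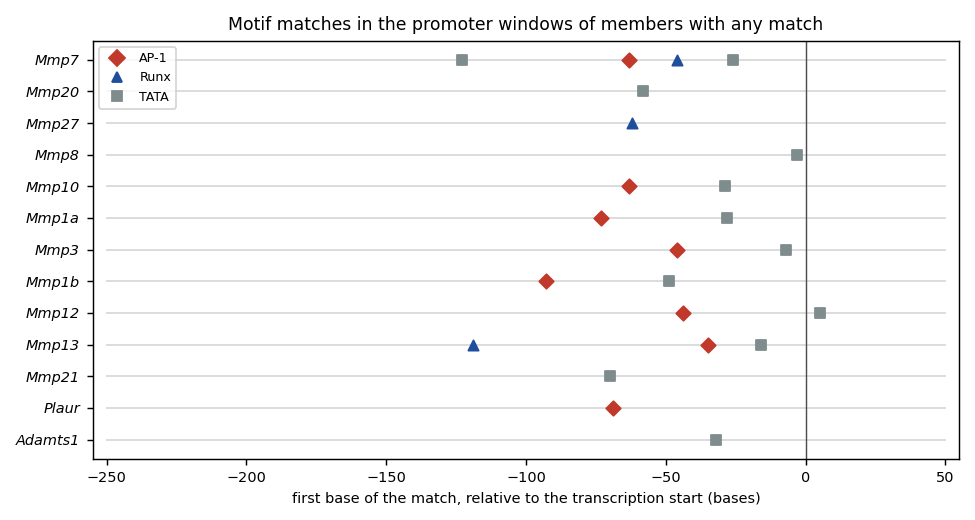
First base of each AP-1, Runx and TATA letter match relative to the annotated transcription start (horizontal axis, in bases) for the members whose promoter window holds any match, 1 row a gene. AP-1 matches lie between -93 and -35 in all 8 members that have one, and the Runx match of Mmp7 lies in the window of another annotated start of that gene.

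The Adamts genes summed to similar levels, with 109 and 115 FPKM in triple-mutant and 133 and 89.9 FPKM in double-mutant tumors, a ratio of means of 1.0, but its largest members differed. Adamts1, an enzyme that cleaves versican and aggrecan, held the largest share in both triple-mutant tumors (34.9% and 36.4%), and Adamts4, a related aggrecanase, in both double-mutant tumors (26.4% and 59.1%). Of the 14 Adamts genes tested, 5 were higher by at least 1 log2 unit in both triple-mutant tumors and 2 in both double-mutant tumors. Over all genes tested these shares were 7.3% and 4.65%.

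Adamts4 (chr1:171250422-171259922) was at 6.88 and 16.6 FPKM in triple-mutant and 35.1 and 53.2 FPKM in double-mutant tumors, without overlap (log2 fold change -1.91, standard error 0.50, limma adjusted p = 0.442). Adamts1 was at 38.0 and 41.8 FPKM in triple-mutant and 33.1 and 4.99 FPKM in double-mutant tumors. The genotypes did not overlap, but only tumor 26050 stood apart, and the log2 fold change of 1.52 (standard error 0.87, limma adjusted p = 0.611) was 0.26 without it. Adamts5, the aggrecanase 55 kb from Adamts1 on chromosome 16, was also lowest in tumor 26050, at 0.54 FPKM against 2.41, 4.78 and 3.17 FPKM in tumors 26043, 26044 and 26048.

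Adamts15, a versican-cleaving enzyme, was at 17.2 and 3.95 FPKM in triple-mutant and 1.74 and 2.37 FPKM in double-mutant tumors, and tumor 26043 carried most of the log2 fold change of 1.64 (standard error 0.70, limma adjusted p = 0.535), which was 0.71 without it. Its neighbor Adamts8, 20.1 kb away on chromosome 9, ran from 1.33 to 1.71 FPKM over the 4 tumors. Adamts20, an enzyme known for melanoblast survival and palate closure, was at 3.47 and 3.19 FPKM in triple-mutant and 1.18 and 0.84 FPKM in double-mutant tumors. Its log2 fold change was 1.11 (standard error 0.31, limma adjusted p = 0.453). Adamts9, a versican-cleaving enzyme, ran from 2.32 to 7.84 FPKM with overlap between genotypes.

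The procollagen N-proteinases, which trim the amino end of fibrillar procollagens, were led by Adamts14 in the size of the difference. Adamts14 (chr10:61197112-61273438) was at 1.35 and 0.19 FPKM in triple-mutant and 7.35 and 5.19 FPKM in double-mutant tumors (log2 fold change -2.10, standard error 0.46, limma adjusted p = 0.374). Both double-mutant tumors were thus several times above both triple-mutant tumors. Adamts2, the main enzyme of this kind for type I procollagen, was at 10.7 and 4.60 FPKM against 17.0 and 5.18 FPKM. Adamts3, which also processes the lymphatic growth factor Vegfc, was at 5.12 and 0.72 FPKM against 0.71 and 2.43 FPKM. Neither Adamts2 nor Adamts3 separated the genotypes.

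Of the other Adamts genes, Adamts7 and Adamts17 were higher in both triple-mutant tumors. Adamts7, which degrades cartilage oligomeric matrix protein, was at 5.10 and 8.76 FPKM in triple-mutant and 2.66 and 1.29 FPKM in double-mutant tumors (log2 fold change 1.41, standard error 0.43, limma adjusted p = 0.478). Adamts17, linked to fibrillin microfibrils, was at 1.34 and 3.20 FPKM against 0.097 and 0.034 FPKM, a difference set by near-absence in the double-mutant tumors (log2 fold change 1.56, standard error 0.40, limma adjusted p = 0.425). Adamts10, also linked to fibrillin, was close between genotypes, with 6.13 and 9.64 FPKM against 8.53 and 4.75 FPKM. Adamts18 was split within both genotypes, with 1.08 and 12.8 FPKM in triple-mutant and 15.4 and 2.74 FPKM in double-mutant tumors.

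**Figure D4:**
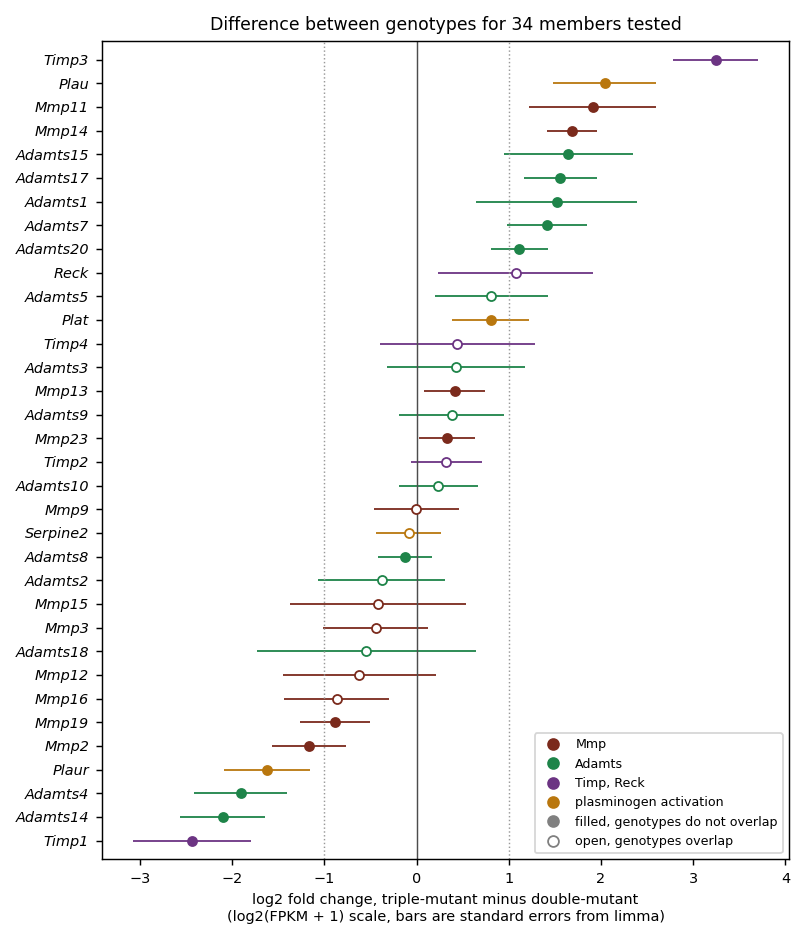
Log2 fold change of 34 of the 35 members tested, triple-mutant minus double-mutant on the log2(FPKM + 1) scale (horizontal axis), with bars for the limma standard error (n = 2 tumors a genotype); filled points mark genes whose genotypes did not overlap, and dotted lines mark 1 log2 unit. Timp3 lies farthest to the right and Timp1 farthest to the left, and the Adamts genes lie on both sides.

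In the plasminogen activator system, the protease and its receptor had fold changes of opposite sign. Plau, urokinase (chr14:20836662-20843388), was at 36.2 and 99.0 FPKM in triple-mutant and 11.7 and 16.3 FPKM in double-mutant tumors (log2 fold change 2.04, standard error 0.56, limma adjusted p = 0.452). Plaur, the receptor that holds urokinase at the cell surface, was at 6.91 and 8.36 FPKM against 17.1 and 37.8 FPKM (log2 fold change -1.62, standard error 0.46, limma adjusted p = 0.470). Neither gene overlapped between genotypes. Within each tumor Plau over Plaur was 5.24 and 11.8 in triple-mutant and 0.686 and 0.430 in double-mutant tumors.

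Plat, the tissue-type activator, was at 10.9 and 9.48 FPKM in triple-mutant and 7.70 and 3.72 FPKM in double-mutant tumors, without overlap and with a log2 fold change of 0.80. Serpine2, or protease nexin 1, which inhibits thrombin and the activators, was the most abundant of the 52 members, with 196 and 268 FPKM in triple-mutant and 298 and 199 FPKM in double-mutant tumors, and the genotypes overlapped. The substrate gene Plg and its other partners were part of a list of 17 genes of the plasmin and coagulation systems, of which 7 were tested and 0 passed an adjusted p of 0.05 in limma, with 0 at an unadjusted p under 0.05. Only Tfpi2, a Kunitz inhibitor of plasmin in the matrix, differed by at least 1 log2 unit without overlap, with 2.22 and 0.64 FPKM in triple-mutant and 8.44 and 2.64 FPKM in double-mutant tumors.

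The 17 members below the filter were Adamts6, Adamts12, Adamts13, Adamts16, Adamts19, Mmp1a, Mmp1b, Mmp7, Mmp8, Mmp10, Mmp17, Mmp20, Mmp21, Mmp24, Mmp25, Mmp27 and Mmp28. Their highest level was 2.16 FPKM, for Adamts12 in tumor 26048. Only 4 of them reached 1 FPKM in any tumor, 11 stayed under 0.5 FPKM in all 4, and Mmp20, the enamel protease, was listed at 0 in every tumor. FPKM does not give the number of reads, so a low value here does not show that a gene was off.

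Other proteases and matrix genes from lists of related genes gave 0 calls at an adjusted p of 0.05 in limma in every list. Of 7 Adamts-like proteins, which lack a protease domain, 4 were tested, with Adamtsl5 at 6.33 and 2.43 FPKM against 1.61 and 0.86 FPKM and Thsd4 at 0.69 and 1.23 FPKM against 7.63 and 2.51 FPKM. Of 13 Adam proteases 8 were tested, and Adamdec1 was at 1.80 and 2.36 FPKM in triple-mutant tumors and under 0.1 FPKM in both double-mutant tumors, while Adam8 was at 3.64 and 1.67 FPKM against 3.76 and 11.3 FPKM. Of 17 cathepsins and cystatins 16 were tested, with 1 higher by at least 1 log2 unit in both triple-mutant tumors (Ctse) and 2 in both double-mutant tumors (Ctsc and Ctsh). Of 14 serine protease and inhibitor genes 11 were tested, with Htra1, a secreted serine protease, at 41.0 and 29.3 FPKM against 16.1 and 5.04 FPKM, and hepsin (Hpn) at 16.9 and 2.81 FPKM against 18.0 and 24.1 FPKM. No gene of the 6 proprotein convertases, which activate Mmp14 and Adamts precursors, or of the 5 procollagen C-proteinases and enhancers differed by that much without overlap. In these lists, limma gave an unadjusted p under 0.05 to 1 Adamts-like, 2 Adam, 2 cathepsin, 1 serine protease, 0 convertase and 0 C-proteinase genes. Over all genes tested, 9.82% were under that p. At least 1 log2 unit without overlap was reached by 7.3% of them with the triple-mutant tumors higher and by 4.65% with the double-mutant tumors higher.

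The matrix itself was described by its substrates and its crosslinking enzymes. Of 17 matrix substrate genes 13 were tested, with 1 at an unadjusted p under 0.05 in limma. The perlecan gene Hspg2 and Vwf were higher by at least 1 log2 unit in both triple-mutant tumors, and lumican (Lum) and tenascin C (Tnc) in both double-mutant tumors. Over all genes tested, 7.3% and 4.65% were higher by that much in these directions. All 8 collagen crosslinking enzymes were tested, with 2 at an unadjusted p under 0.05 in limma, against 9.82% of all genes. Lox, lysyl oxidase, was at 1.38 and 0.41 FPKM in triple-mutant and 11.1 and 9.46 FPKM in double-mutant tumors (log2 fold change -2.62, standard error 0.40, limma adjusted p = 0.214), and Loxl1 was at 3.85 and 1.48 FPKM against 15.9 and 9.26 FPKM.

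Markers of stromal and myeloid cells, which express many of these genes, differed between tumors as well. Fibroblast markers summed to 206 and 123 FPKM in triple-mutant and 901 and 433 FPKM in double-mutant tumors. Of 8 such markers 7 were tested, 4 of them (Col1a1, Col1a2, Col3a1 and Lum) were higher by at least 1 log2 unit in both double-mutant tumors and 1 (Pdgfra) in both triple-mutant tumors, and none was at 0. Over all genes tested these shares were 4.65% and 7.3%. Macrophage markers summed to 607 and 325 FPKM against 993 and 678 FPKM, with 5 of the 8 tested higher in both double-mutant tumors and 0 in both triple-mutant tumors. Over all genes tested, 22.9% and 21.3% were higher in these directions. The fibroblast and macrophage sums were thus higher in both double-mutant tumors, as were Timp1, Mmp2, Adamts14 and Plaur. Of the double-mutant tumors, 26048 had the higher value of both sums and of Timp1, Mmp2 and Adamts14, and 26050 the higher Plaur. Of the triple-mutant tumors, 26043 had the higher value of both sums and of Timp1 and Adamts14, and 26044 the higher Mmp2 and Plaur. Basal epithelial markers were higher in both triple-mutant tumors, as were Timp3, Mmp14 and Plau, with 6 of 6 markers tested higher by at least 1 log2 unit, against 7.3% of all genes. In tumor 26043 the basal sum, Krt5, Krt14 and Timp3 were higher than in tumor 26044. In tumor 26044 the basal markers Trp63, Acta2, Oxtr and Cnn1 were higher than in tumor 26043, as were Mmp14 and Plau. The part of these cell types in the values above was not tested.

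Endothelial markers were highest in tumor 26044, at 91.7 FPKM against 28.9, 49.9 and 27.9 FPKM in tumors 26043, 26048 and 26050, the tumor in which Reck and Mmp11 were also highest. Neutrophil markers summed to 164 and 15.8 FPKM in triple-mutant and 31.9 and 126 FPKM in double-mutant tumors. Most of the sums of 26043 and 26050 was Ltf, a milk protein as well, at 126 and 73.6 FPKM. The granule genes Mpo, Elane and Ngp reached 0.36 FPKM at most. Camp, another granule gene, was at 0.22, 4.52, 0 and 0 FPKM in tumors 26043, 26044, 26048 and 26050. Pericyte markers summed to 41.8 and 45.8 FPKM against 30.5 and 17.3 FPKM. Skeletal muscle markers were at 33.4 FPKM in tumor 26050 and at 2.05 to 2.91 FPKM in the other tumors, and adipocyte markers reached 1390 FPKM in tumor 26048 against 7.58 to 261 FPKM elsewhere. Luminal markers summed to 4190 and 522 FPKM against 2583 and 2420 FPKM. Of the 6 tested, Krt8, Krt18 and Epcam were higher by at least 1 log2 unit in both double-mutant tumors and Krt19 in both triple-mutant tumors. Over all genes tested these shares were 4.65% and 7.3%. Milk protein genes of alveolar cells summed to 187 and 16.7 FPKM against 1429 and 6630 FPKM. T cell markers reached 3.73 FPKM at most, B cell markers 1.53 FPKM and suprabasal keratinocyte markers 8.39 FPKM, and of the mast cell markers only Kit, which mammary epithelium also expresses, passed 1.82 FPKM, at 21.8 to 115 FPKM.

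The precision of single values was limited by the quantification itself. The half-width of the Cufflinks interval had a median of 11.6% to 12.1% of its midpoint over the members tested, per tumor. For 18 to 20 members per tumor the deposited FPKM lay outside its own interval, among them Timp3 and Mmp14 in all 4 tumors, so that interval and value do not describe the same estimate there. When the middle of the interval was taken instead, the log2 fold change of Timp3 was 3.45, that of Mmp14 1.64, that of Adamts14 -1.91 and that of Timp1 -2.43. The 15 members that differed by at least 1 log2 unit without overlap kept their sign under every alternative setting that tested them. That was all 13 settings for 12 of them, while Adamts15, Adamts17 and Adamts20 did not pass a filter of 5 FPKM. For genes chosen without overlap, only TPM, quantile normalization and interval midpoints could have reversed the sign. Under the other settings the sign was fixed by that choice.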

How the data were processed

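PolyA RNA of 4 tumors, 2 per genotype as the sample labels give it, was sequenced from strand-marking libraries. Per the submitters' processing notes, reads were handled with TopHat2 2.0.10, Bowtie 0.12.9 and Cufflinks 2.1.1 on build mm10 (GRCm38), and the gene annotation is not given in the sources used here. The authors deposited, for each tumor, the FPKM of each gene with the bounds of the Cufflinks interval and a status, which corrects for transcript length and mapped fragments but keeps no read number, so depth is unknown. HTSeq counts and DESeq2 1.6.2 results were not analysed here.

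The 4 tables were joined by symbol and position. Genes that reached 1 FPKM in 2 or more tumors were fitted with limma 3.58.1 (R 4.3.3) on log2(FPKM + 1), with an intensity trend and Benjamini-Hochberg adjustment over 12752 genes at a threshold of 0.05, without pairing. The script was tested on simulated data. Coordinates were set from the tables, with 1 added to starts. Overlaps used GENCODE M21 and promoter windows RefSeq. Genes were named where the genotypes did not overlap and differed by at least 1 log2 unit, where they were among the 3 most abundant of their class, where tumors of 1 genotype differed 4-fold or more, and for inhibitors and plasminogen activator genes. Results of 1 member tested are not reported here, though it stays in the counts. Adamts8, Adamts9 and Adamts12 and the windows of 2 Mb were chosen after values were seen. The members and lists were chosen with earlier results of these data known. Alternatives were TPM, pseudocount 0.1, no or a 5 FPKM filter, quantile normalization, no trend, status OK, interval midpoints, no small RNA genes, and each tumor left out.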

Additional observations from a re-analysis of the deposited data

How the results depend on the processing

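No member was called in any of the 13 alternatives, with a smallest adjusted p between 0.107 (without tumor 26043) and 0.992 (without tumor 26050), while limma called 5 genes in all without the trend, 1 with interval midpoints and 0 otherwise. Members at least 1 log2 unit higher in both double-mutant tumors numbered 6, and 7 to 10 with a tumor left out, the most without tumor 26050; a lone tumor was assumed to vary like the other genotype. Of 33 named members tested, 21 kept their sign in every alternative that tested them, which for 7 of the 21 leaves out the filter of 5 FPKM. Among the 21 are the 15 members chosen without overlap, whose sign most of these settings could not reverse. A pseudocount of 0.1 moved the log2 fold change of Adamts17 from 1.56 to 3.75, of Adamts14 from -2.10 to -3.27, of Adamts5 from 0.81 to 1.27, of Mmp16 from -0.87 to -1.52 and of Mmp19 from -0.88 to -1.55. With a tumor left out, the log2 fold change ran from -1.91 to 0.82 for Adamts18, -0.49 to 1.34 for Adamts3, -0.50 to 0.49 for Mmp9, -0.38 to 0.20 for Serpine2, -0.13 to 0.60 for Adamts10, -1.15 to 0.39 for Adamts2, -1.40 to 0.57 for Mmp15, -1.14 to 0.25 for Mmp3, -0.080 to 2.22 for Reck, -0.60 to 1.47 for Timp4, -1.79 to 0.54 for Mmp12 and -0.050 to 0.69 for Timp2. With interval midpoints Serpine2 was at 0.013. The cause was not tested. With a tumor left out, Adamts1 ran from 0.26 to 2.77, Adamts15 from 0.71 to 2.58, Timp1 from -3.31 to -1.56 and Timp3 from 2.77 to 3.71. No paired analysis was possible because the tumor numbers are not shared between genotypes and, although the study describes littermates, the sources used here do not say which tumors come from littermates. With 2 tumors a genotype, a difference that misses the threshold does not show equal levels.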
